A study of Rattus norvegicus with 12 samples.

Results

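The miR-99/100 and miR-125 families were followed in rat plasma. Members were chosen by name alone: an endogenous probe belonged if its name, without the species prefix and any arm ending, read miR-99a, miR-99b, miR-100, miR-125a or miR-125b. This gave 7 of the 420 endogenous probes of the panel, named rno-miR-99a, rno-miR-99b, rno-miR-100, rno-miR-125a-5p, rno-miR-125a-3p, rno-miR-125b-5p and rno-miR-125b-3p and written below without the prefix. The families themselves were picked with earlier comparisons of the same rats known, so the values for pregnant against control rats are a description of these animals and are not support for a difference.

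The study asked how the processing of nCounter counts affects the miRNAs called as changed in maternal blood. Plasma came from 12 female Wistar rats. The 6 pregnant rats were at gestation day E14.5 and aged 103 to 373 days, and the 6 non-pregnant controls were aged 110 to 269 days, with 4 rats under and 2 rats over 200 days in each group. Blood was drawn by cardiac puncture after death, cells and platelets were removed by centrifugation, a rice miRNA (osa-miR-414) was added as a spike-in, and each rat gave 1 lane of counts. On the nCounter each miRNA is tagged, hybridised to a barcoded reporter and counted once per imaged barcode.

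miRNAs are short RNAs that lower the output of messenger RNAs, which they find mainly through the seed, the bases near their 5′ end. The miR-125 family is the vertebrate relative of lin-4, the founding miRNA of nematode development, and the miR-99/100 family is best known for targeting mTOR and for sharing primary transcripts with let-7 and miR-125. Both families are made in many solid tissues, including endothelium and muscle, and their members are also found outside cells in blood.

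In the rat genome the families lay in 3 clusters, each in the order miR-99/100, let-7 and miR-125 by position. On GRCr8, Mir99b, Mirlet7e and Mir125a spanned 0.696 kb of chromosome 1. Mir100, Mirlet7a-2 and Mir125b1 spanned 51.8 kb of chromosome 8, and Mir99a, Mirlet7c1 and Mir125b2 spanned 45.3 kb of chromosome 11. The let-7 miRNAs of these clusters were therefore examined as well, although other genes can give the same mature let-7.

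The mature sequences are shown because members of a family differ by few bases and the assay tells them apart by hybridisation. RefSeq entries were matched to 6 of the 7 probes, all but miR-99a. Capitals mark the seed, bases 2 to 8 from the 5′ end. The miR-99/100 probes carry no arm in their names, and the 5p arm is printed for miR-99b (chr1:67350070-67350091, plus strand) and miR-100 (chr8:50798307-50798328, plus strand).
miR-99b-5p: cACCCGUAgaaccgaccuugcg
miR-100-5p: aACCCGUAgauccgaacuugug
Both had the seed ACCCGUA. Between miR-100-5p and miR-99b-5p the substitutions were A1C, U11A, A16C and U21C, counted from the 5′ end, with 18 of 22 bases identical.

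The 5p arms of miR-125a (chr1:67350689-67350712, plus strand) and miR-125b (the Mir125b2 copy, chr11:29732588-29732609, plus strand) had a seed of their own.
miR-125a-5p: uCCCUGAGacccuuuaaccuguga
miR-125b-5p: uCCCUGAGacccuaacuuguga
The pair shared their first 13 and last 5 bases, and the seed CCCUGAG was held by 3 of the 693 mature rat miRNAs in the table, the third being miR-351-5p. Whether either probe also captured the other miRNA was not tested.

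The 3p arms are shown because the probe named miR-125b-3p does not say which of the 2 genes it reads.
miR-125a-3p: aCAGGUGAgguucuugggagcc
miR-125b-1-3p: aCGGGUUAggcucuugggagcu
miR-125b-2-3p: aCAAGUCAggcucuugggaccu
Each of these had a seed found once among the 693 entries.

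Depth was low and uneven. Endogenous counts summed to between 6969 and 10176 per control rat (median 9359) and between 5163 and 30301 per pregnant rat (median 11503), and the 2 highest totals, 24010 and 30301, were those of pregnant rats 5 and 6. The 7 members together took 0.816% to 1.10% of the endogenous counts of a control rat and 0.397% to 1.22% of those of a pregnant rat. For pregnant rat 3, at the bottom of that range, the 95% Wilson interval was 0.303% to 0.52%, and for pregnant rat 2, at the top, 0.955% to 1.56%. These intervals cover counting error only.

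The first question was whether the members stood above background. The counts held none of the panel's negative control probes, so the study's own background could not be rebuilt. The 4 exogenous probes for which no miRNA was added served as a stand-in (cel-miR-254, osa-miR442, ath-miR159a and cel-miR-248), with their mean and SD taken in each rat. Their mean was between 7.25 and 15.8 counts per rat, and the mean + 2 SD, the higher limit used here, was between 17.9 and 49.1. None of the 7 members, 0 in all, exceeded the mean + 2 SD in all 12 rats. With the mean alone as the limit, 1 member, miR-99a, was above it in all 12 rats. At the mean + 1 SD, 38 of the 420 endogenous probes were above the limit in all 12 rats, and 0 members were among them. The matching counts over all 420 probes at the mean and at the mean + 2 SD were not taken.

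miR-99a, a targeter of mTOR transcripts in other tissues, was the steadiest member. Its raw counts in control rats 1 to 6 were 23, 17, 27, 19, 17 and 28, and in pregnant rats 1 to 6 they were 14, 18, 11, 11, 24 and 29. Pregnant rats 1, 3 and 4 were below every control and pregnant rat 6 was above every control, so the groups overlapped. Over all rats the highest count was 2.64 times the lowest, while the endogenous total varied 5.87-fold. It passed this higher limit in 2 rats, controls 4 and 6. The plant probe ath-miR159a, with no target added, had counts from 11 to 40 in the same lanes, and miR-99a exceeded it in 5 of 12 rats.

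miR-125a-5p had raw counts of 33, 30, 25, 19, 17 and 10 in control rats 1 to 6 and of 8, 9, 11, 14, 42 and 36 in pregnant rats 1 to 6. Pregnant rats 5 and 6 were above every control, pregnant rats 1 and 2 were below every control, and the groups overlapped. It passed this higher limit in 4 rats, namely controls 2 and 4 and pregnant rats 5 and 6.

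miR-125b-5p had the widest range, 22.0-fold between its lowest and highest count. Its raw counts were 21, 14, 24, 11, 14 and 8 in control rats 1 to 6 and 6, 7, 8, 4, 65 and 88 in pregnant rats 1 to 6. Pregnant rats 1, 2 and 4 were below every control, pregnant rat 3 equalled the lowest control, and pregnant rats 5 and 6 were above every control. The latter were the only 2 rats, of 12, in which it passed the mean + 2 SD of the stand-in.

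The other 4 members were counted in single digits in most rats. miR-99b had 3 to 9 counts in controls (median 7) and 4 to 12 in pregnant rats (median 6), and it was above the mean of the stand-in in 0 of 12 rats. miR-100, which like miR-99b carries the miR-99/100 seed, had 6 to 12 counts in controls (median 8) and 3 to 14 in pregnant rats (median 7.5), above that mean in 3 rats. miR-125a-3p, the partner strand of the miR-125a hairpin, had 3 to 9 counts in controls (median 7) and 3 to 10 in pregnant rats (median 6). miR-125b-3p had 1 to 9 counts in controls (median 4) and 3 to 11 in pregnant rats (median 7.5). Each of the 3p members was above the mean of the stand-in in 2 rats and above the mean + 2 SD in 0, and at this depth their levels could not be told from the background.

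**Figure D1:**
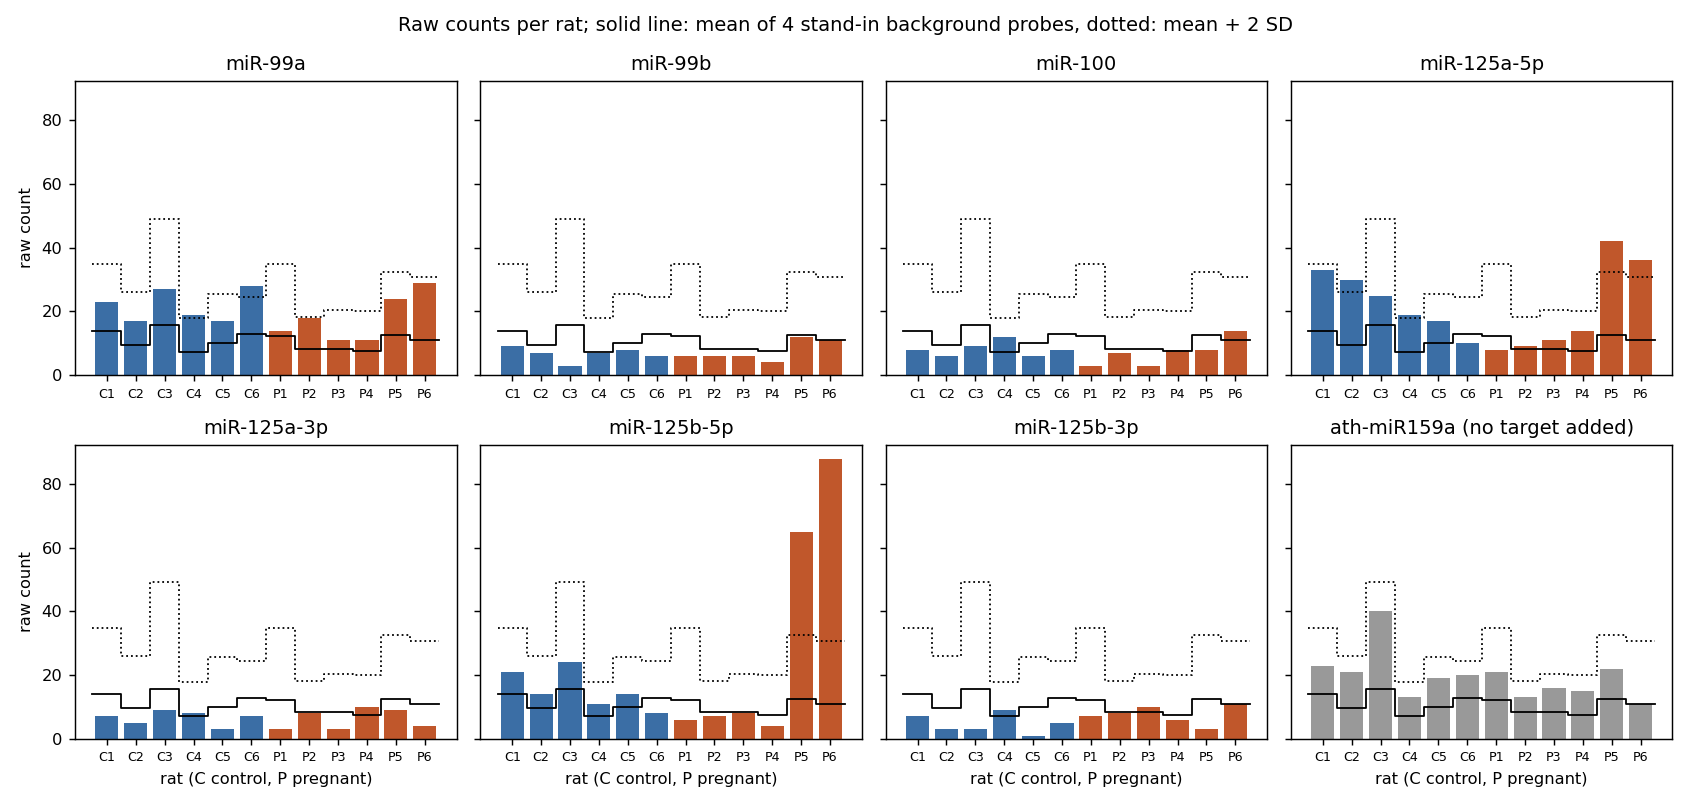
Raw counts (y axis) of the 7 members and of ath-miR159a, a plant probe with no target added, in control rats C1 to C6 (blue) and pregnant rats P1 to P6 (orange), with the plant probe in grey. The solid line is the mean of the 4 stand-in background probes in each rat and the dotted line the mean + 2 SD; only the miR-125b-5p bars of pregnant rats 5 and 6, at 65 and 88 counts, rise far above the dotted line.

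All 7 members overlapped between the groups in raw counts, and so did all others, since 0 of the 420 endogenous probes (0%) had groups that did not overlap.

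The comparison of pregnant with control rats was made by edgeR's quasi-likelihood test with TMM scaling over 187 endogenous probes, those with 10 counts or more in 6 rats or more. The filter passed 3 of the 7 members, miR-99a, miR-125a-5p and miR-125b-5p. The fit called 0 of the 187 probes (0%) at an adjusted p under 0.05, and 0 members. At an unadjusted p under 0.05 it held 11 probes (5.88%), of which 10 were higher and 1 lower in pregnant rats, and the lower one (0.535% of the 187) was miR-99a. That split depended on the scaling: with plain library sizes 1 of 13 such probes was higher, and with the upper quartile 3 of 14, while the median log2 fold change of all tested probes moved from 0.05 to -0.33 and -0.11.

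On the TMM scale, in scaled CPM over the tested probes, miR-99a was 2342 ± 315 (SD, n = 6) in controls and 1752 ± 358 (SD, n = 6) in pregnant rats. Controls lay between 2007 and 2803 CPM, and pregnant rats 2 and 6, at 2266 and 2122, lay within that range while the other 4 lay below it. The fitted log2 fold change, pregnant over control, was -0.41 (SE 0.17, edgeR adjusted p = 0.67). The level of ath-miR159a on the same scale was 2428 ± 824 in controls and 1732 ± 549 in pregnant rats (SD, n = 6 each), a log2 ratio of means of -0.49. For the other 3 probes with no target added, the log2 ratios of means were 0.13 (cel-miR-254), -0.12 (osa-miR442) and -0.96 (cel-miR-248). The part of background in the miR-99a values was not tested.

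miR-125a-5p was 2425 ± 890 CPM in controls and 1810 ± 817 in pregnant rats (SD, n = 6 each), with a log2 fold change of -0.37 (SE 0.32, edgeR adjusted p = 0.797). miR-125b-5p was 1650 ± 554 CPM in controls and 2342 ± 2505 in pregnant rats, with a log2 fold change of 0.61 (SE 0.54, edgeR adjusted p = 0.797). For miR-125a-5p the difference between the group means was smaller than the SD of either group. For miR-125b-5p it was larger than the SD of the controls and smaller than that of the pregnant rats. The miR-125b-5p levels of pregnant rats 5 and 6 were 4499 and 6440 CPM, against 538 to 1010 CPM in pregnant rats 1 to 4. The size of that gap depended on the scaling, since the TMM factors of pregnant rats 5 and 6 were 0.647 and 0.479. As CPM of the endogenous total, without these factors, the levels were 2707 and 2904, against 404 to 1356 in pregnant rats 1 to 4.

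Without pregnant rats 5 and 6, left out for their totals after the data had been seen, the log2 fold changes were -0.49 for miR-99a, -0.88 for miR-125a-5p and -1.08 for miR-125b-5p, a turn of direction for the last. The adjusted p-values of that fit were 0.389, 0.384 and 0.384 in edgeR. Over all alternatives they lay between 0.353 and 0.985 for miR-99a and between 0.384 and 0.999 for either miR-125 5p arm. All 3 members, each lower, were then among the 9 of 187 probes (4.81%) that were lower at an unadjusted p under 0.05, beside 10 that were higher.

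The 4 members below the filter were taken from the fit on all 420 probes, which also called 0 (0%). Their log2 fold changes there were -0.26 (SE 0.33) for miR-100, 0.07 (SE 0.31) for miR-99b, -0.12 (SE 0.38) for miR-125a-3p and 0.63 (SE 0.44) for miR-125b-3p, with edgeR adjusted p-values of 0.986, 0.996, 0.996 and 0.878. The median of the 7 members in this fit was that of miR-125a-3p, -0.12, beside 0.06 over all 420 probes.

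**Figure D2:**
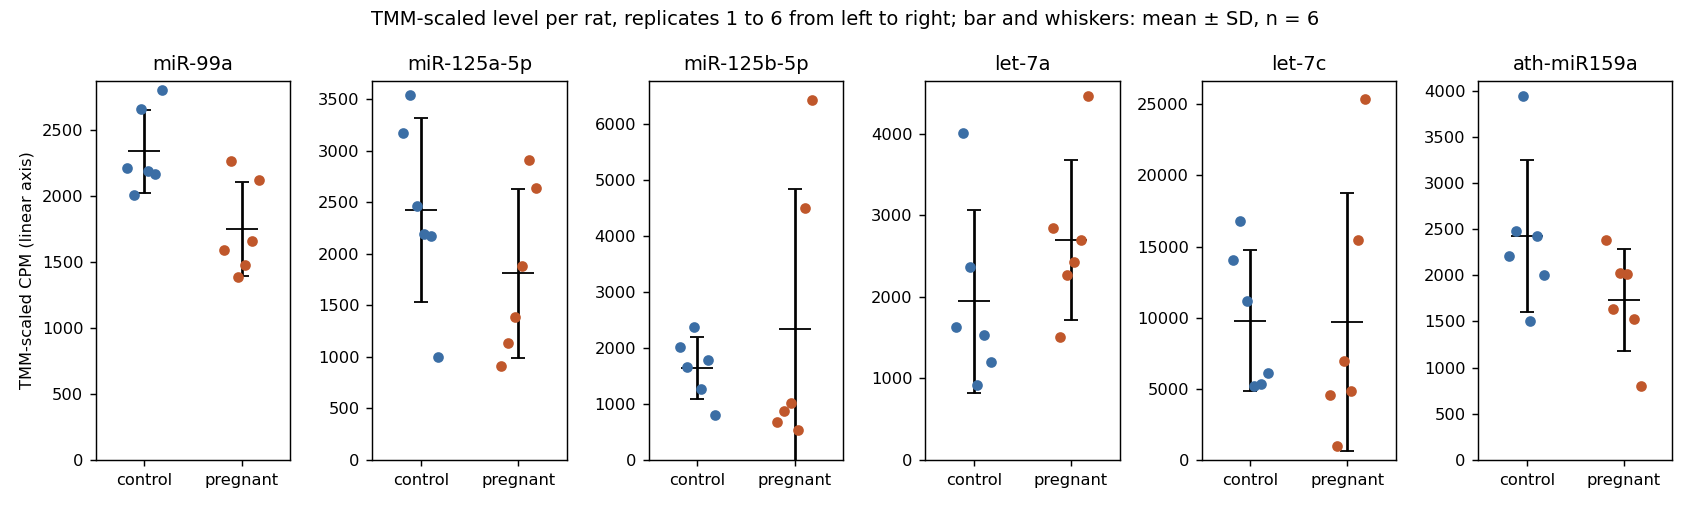
TMM-scaled CPM (y axis, linear, a scale of its own in each panel) of the 3 members that passed the count filter, of let-7a and let-7c, and of the plant probe ath-miR159a, with 1 point per rat in replicate order and the mean ± SD of 6 rats. The mean of miR-99a was 2342 CPM in controls and 1752 in pregnant rats, that of the plant probe 2428 and 1732, and 2 pregnant rats, 5 and 6, set the mean of miR-125b-5p.

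Marker miRNAs of blood cells and tissues that could reach plasma were summed in each rat. Of 4 red cell miRNAs listed, 3 were matched (miR-451, miR-144 and miR-16), and they took 3.15% to 14.0% of endogenous counts in controls and 1.08% to 18.6% in pregnant rats, with 18.6% in pregnant rat 5 and 10.8%, within the control range, in pregnant rat 6. The 4 platelet miRNAs (miR-126, miR-191, miR-223 and miR-24) took 0.946% to 2.31% in controls and 0.695% to 3.29% in pregnant rats, with the highest shares, 2.62% and 3.29%, in pregnant rats 5 and 6. The 4 endothelial and stromal miRNAs (miR-126, miR-143, miR-145 and miR-199a-3p) took 1.07% to 4.00% in controls and 0.779% to 4.17% in pregnant rats, with 2.72%, within the control range, in pregnant rat 5 and 4.17% in pregnant rat 6. The 5 muscle miRNAs took 1.04% to 1.89% in controls and 0.518% to 1.49% in pregnant rats, with 1.27% in pregnant rat 5 and the lowest share, 0.518%, in pregnant rat 6. The 2 liver miRNAs, miR-122 and miR-192, took 1.81% to 26.3% in controls and 1.65% to 43.7% in pregnant rats, with 5.07% and 18.2% in pregnant rats 5 and 6, within the control range. The lowest count in the table was 1, so none of these markers was at 0, and their part in the miR-125 values was not tested.

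The let-7 partners from the same clusters were measured too. let-7c, encoded beside Mir99a and Mir125b2, had raw counts of 146, 142, 113, 45, 42 and 61 in control rats 1 to 6 and of 40, 8, 55, 36, 223 and 347 in pregnant rats 1 to 6. As with miR-125b-5p, the raw counts of pregnant rats 5 and 6 were above every control and the groups overlapped. let-7a, which several genes encode and 1 of them lies in the Mir100 cluster, had raw counts of 17, 34, 24, 8, 12 and 12 in control rats 1 to 6 and of 25, 12, 18, 18, 39 and 61 in pregnant rats 1 to 6. Here too the raw counts of pregnant rats 5 and 6, the lanes with the highest totals, were above every control and the groups overlapped. As CPM of the endogenous total, their let-7a was 1624 and 2013, against 901 to 3384 in controls. let-7c was 9288 and 11452, against 5069 to 14837, so both lay within the control range. miR-125b-5p, at 2707 and 2904, was above the highest control, 2358. On the TMM scale pregnant rat 6 was above every control for let-7a and let-7c, and pregnant rat 5 for neither. let-7e, encoded between Mir99b and Mir125a, had 4 to 20 counts in controls (median 7) and 4 to 21 in pregnant rats (median 6.5). Of these 3 partners 2 passed the count filter, and 0 were called.

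Of relatives outside the families, miR-10a and miR-10b were examined, and miR-351-5p, which shares the miR-125 seed, was not. miR-10a-5p has the seed ACCCUGU. It had 5 to 24 counts in controls (median 15.5) and 12 to 19 in pregnant rats (median 16), and it passed this higher limit in 0 of 12 rats. miR-10b had 3 to 6 counts in controls (median 3.5) and 4 to 9 in pregnant rats (median 7), with 3 pregnant rats above every control. miR-10a-3p had 3 to 5 counts in controls (median 5) and 2 to 9 in pregnant rats (median 4.5). Each of these last probes was above the mean of the stand-in in 1 rat.

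Next, the members were compared with each other and with let-7a and let-7c over the 12 rats, as TMM-scaled log2 CPM, in 9 relations with two-sided permutation p-values and Benjamini-Hochberg adjustment over the 9. miR-125a-5p and miR-125b-5p varied together, with Pearson's r = 0.69 (permutation p = 0.0135, adjusted 0.0405) and Spearman's rho = 0.76 (permutation p = 0.0056, adjusted 0.0168). Without the 2 rats farthest from the median of miR-125a-5p, control rat 6 and pregnant rat 1, r was 0.60, and without pregnant rats 5 and 6 it was 0.75. Within the 6 controls r was 0.79 and within the 6 pregnant rats 0.80. These 2 probes are the pair that shares 13 leading and 5 trailing bases.

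let-7c varied with both miR-125 5p arms, but at least 5 other tested probes had a higher r with each arm. Its relation with miR-125a-5p had r = 0.73 (permutation p = 0.00568, adjusted 0.0264) and rho = 0.80 (permutation p = 0.0027, adjusted 0.0145), and r was 0.84 without control rat 6 and pregnant rat 1. With miR-125b-5p, r was 0.74 (permutation p = 0.00587, adjusted 0.0264) and rho was 0.79 (permutation p = 0.00322, adjusted 0.0145). Without pregnant rats 5 and 6, the 2 farthest from the median of miR-125b-5p, r was 0.59. Within controls it was 0.54 and within pregnant rats 0.79. miR-125b-5p can come from Mir125b2, beside Mirlet7c1, or from Mir125b1, beside Mirlet7a-2, and the probe does not tell them apart.

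The relations of miR-99a did not pass the adjusted threshold. Its r was 0.08 with miR-125a-5p (permutation p = 0.794, adjusted 0.894), 0.19 with miR-125b-5p (permutation p = 0.546, adjusted 0.701) and 0.01 with let-7c (permutation p = 0.975, adjusted 0.975), with Spearman's rho of 0.02, 0.20 and -0.02 (permutation p = 0.956, 0.542 and 0.957). Without pregnant rats 3 and 4, the farthest from its median, these r were -0.08, -0.15 and -0.12. Without pregnant rats 5 and 6 they were 0.16, 0.51 and 0.07. Within the 6 controls they were -0.75, -0.32 and -0.26, and within the 6 pregnant rats 0.09, 0.40 and -0.16. The difference between these relations and those of the miR-125 5p arms was not tested. The relations of let-7a were also short of the adjusted threshold, with r between -0.39 for miR-99a and 0.44 for miR-125b-5p. The adjusted permutation p-values of those r were 0.369 and 0.348, and for miR-125a-5p, at r = 0.34, it was 0.428. Spearman's rho of let-7a was -0.56 with miR-99a, 0.36 with miR-125a-5p and 0.29 with miR-125b-5p (permutation p = 0.0618, 0.247 and 0.353). Without the 2 rats farthest from each member's median, the r of let-7a were -0.46, 0.40 and 0.01.

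**Figure D3:**
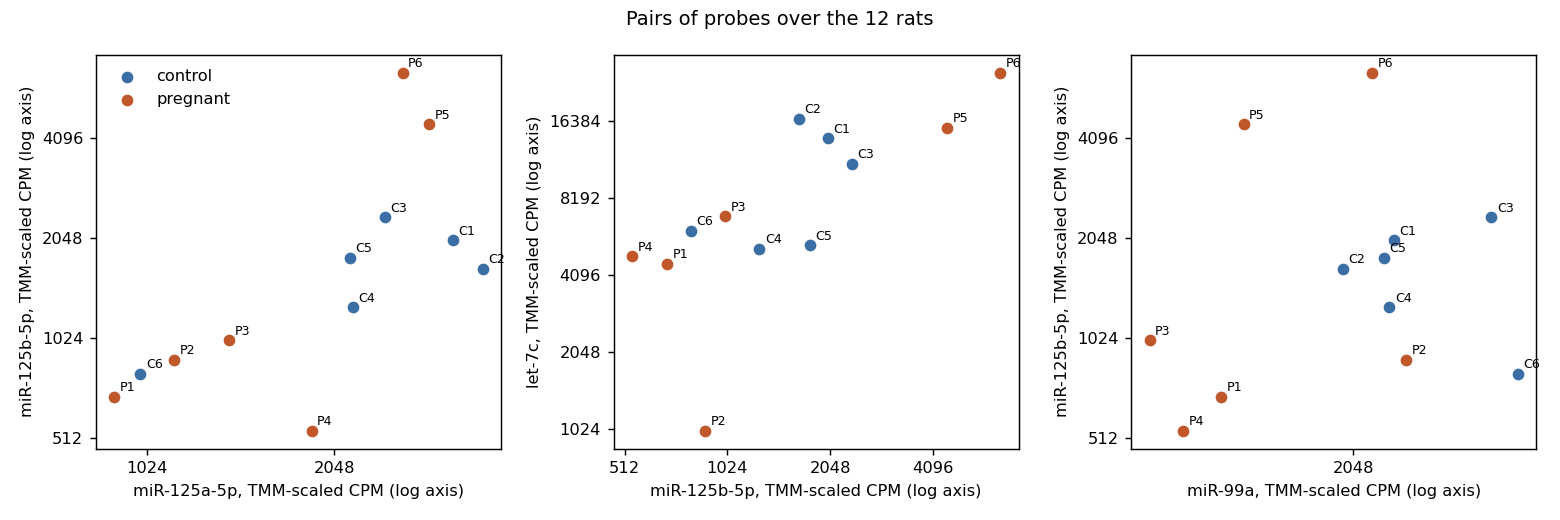
TMM-scaled CPM of pairs of probes (both axes logarithmic) with 1 point per rat, control rats C1 to C6 in blue and pregnant rats P1 to P6 in orange. miR-125a-5p against miR-125b-5p and miR-125b-5p against let-7c run from low to high together (r = 0.69 and 0.74), and miR-99a is set against miR-125b-5p (r = 0.19, and 0.51 without pregnant rats 5 and 6).

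Among the 186 other tested probes, the 5 whose TMM-scaled log2 CPM was most like each member over the 12 rats were listed, as a description without a test, since they are the top of a ranking. For miR-125a-5p they were miR-199a-3p (r = 0.88), miR-130a (0.76), let-7b (0.76), miR-145 (0.75) and miR-27a (0.73). Without control rat 6 and pregnant rat 1 these were 0.84, 0.58, 0.88, 0.70 and 0.54. miR-199a-3p and miR-145 are miRNAs of stromal and smooth muscle cells. For miR-125b-5p they were miR-126, an endothelial and platelet miRNA, miR-148b-3p and miR-29c (0.83 each), the red cell miRNA miR-144 (0.81) and miR-145 (0.78). Those 5 values fell to between 0.34 and 0.58 without pregnant rats 5 and 6. Neither let-7c nor the other miR-125 5p arm was in the list of miR-125a-5p or of miR-125b-5p. For miR-99a the list was miR-147 (0.83), the muscle miRNA miR-206 (0.74), miR-202 (0.66), miR-139-3p (0.60) and miR-876 (0.58). Without pregnant rats 3 and 4 these were 0.69, 0.73, 0.57, 0.23 and 0.38. All 5 had a mean raw count between 10.5 and 31.0, whereas 9 of the 10 entries in the miR-125 lists had means between 32.5 and 211 and miR-148b-3p had 15.2.

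The last comparison followed the members through 14 workflows that combine no background correction, subtraction or thresholding with 3 background levels and 2 sets of normalisers. In subtraction the background is taken off every count, and in thresholding counts below it are raised to it. Values were scaled, after subtraction but before thresholding, either by 38 probes above background in all rats (total RNA) or by the 5 most stable of them (NormFinder), and 0 members were among the 38. First in stability among the 5 was miR-450a, with a log2 fold change of 0.75 (SE 0.30) in the main fit. Its edgeR p was 0.0248 unadjusted and 0.67 adjusted, so it was among the probes higher in pregnant rats at an unadjusted p under 0.05. The log2 fold changes of the rest of the 5 lay between -0.07 and 0.04. The methods' t-test, at an unadjusted p under 0.05, called 3 of the 98 pairs of a member and a workflow (3.06%), beside 63 of the 5880 pairs of all endogenous probes (1.07%). All 3 were lower in pregnant rats, as were 39 of the 63 (0.663% of the 5880). After adjustment within each workflow 0 of the 98 were called. The count moved when rats were left out. Without pregnant rat 1 it was 8, and without control rat 1, control rat 6, pregnant rat 2 or pregnant rat 5 it was 6. Without both pregnant rats 5 and 6 it was 17. Leaving out any other single rat gave 2 to 4. The matching counts over all endogenous probes were not taken, so these are not read as results about the members.

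The calls fell on 2 members. The study also called both lower in pregnant rats, each in other workflows than here. miR-99a was called lower in pregnant rats in workflows 1 and 11, which use NormFinder normalisers with no correction and with thresholding at the mean. These are not separate results, because no miR-99a value was below the threshold and its values were the same in both, 23.4 in controls and 16.2 in pregnant rats. Workflow 1 called 10 of 420 probes lower (2.38%) and workflow 11 called 11 (2.62%). Both scale by the normalisers that include miR-450a, and the part of that probe in the miR-99a calls was not tested. miR-125a-5p was called lower in workflow 13, thresholding at the mean + 1 SD with total RNA normalisers, at 27.2 in controls and 19.6 in pregnant rats, and it was the 1 probe of 420 (0.238%) that this workflow called lower. In 5 of the 12 rats its value there was the background itself.

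The direction of miR-99a, lower in pregnant rats, was the same in all 14 workflows. So was that of miR-99b and miR-100, which were under the mean of the stand-in in most rats. How many of all endogenous probes kept the same direction was not counted. For miR-99a the log2 ratios of means ran from -0.83 to -0.12. The lowest was in workflow 3, with 10 of 12 rats at the floor, and the highest in workflow 12, with 9 of 12 at the background. The 14 are not separate results, since its values were the same in workflows 1 and 11 and in workflows 2 and 14. That of miR-125a-5p was lower in 12 workflows and higher in 2, from -0.88 to 0.40. miR-125b-5p was higher in 13 of the 14 and called in 0, with log2 ratios up to 3.56. That largest ratio came from workflow 4, subtraction of the mean + 1 SD with NormFinder normalisers, where 10 of 12 rats were at the floor of 1 before scaling and the remaining 2 were pregnant rats 5 and 6. miR-99b, miR-100, miR-125a-3p and miR-125b-3p were also called in 0 workflows. In workflow 3, subtraction of the mean + 2 SD, these 4 were at the floor in all 12 rats, so their identical log2 ratios of -0.38 came from the scaling factors alone.

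**Figure D4:**
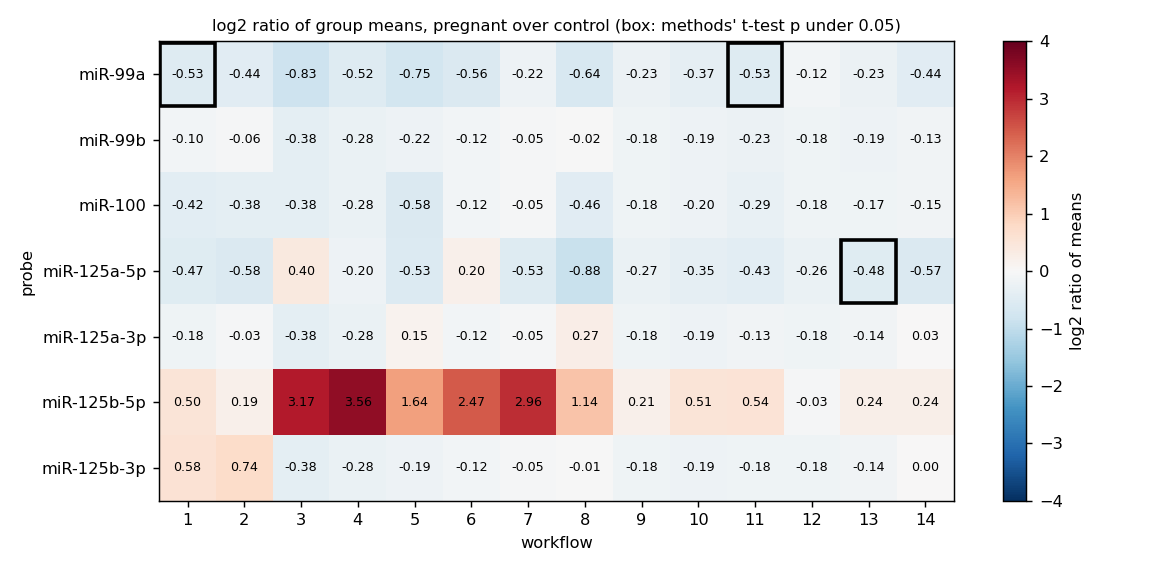
Log2 ratio of group means, pregnant over control, for each of the 7 members (rows) in each of the 14 workflows (columns), with blue for lower and red for higher in pregnant rats. Boxes mark the 3 pairs called by the methods' t-test, 2 for miR-99a and 1 for miR-125a-5p; the red cells of miR-125b-5p under subtraction reach 3.56 and are not called.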

How the data were processed

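Plasma total RNA from 12 rats was counted with the nCounter Rat v1.5 miRNA codeset. The authors deposited raw counts per probe, without background correction or normalisation, for 420 endogenous, 5 exogenous and 4 housekeeping mRNA probes, and 0 columns were left unused. Groups came from the sample labels. Each rat was a replicate, as 0 of 66 pairs of rats had identical counts. Nothing in the counts was aligned to a genome. Probe names were matched to RefSeq miRNAs on GRCr8.

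The members, the marker and let-7 lists and the comparisons were chosen with earlier results of these data known. The named probes were all members, the listed let-7, miR-10 and marker miRNAs, and the 5 probes most like each member that passed the filter.

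Counts were fitted with edgeR 4.0.16 (glmQLFit and glmQLFTest, TMM) in R 4.3.3, with Benjamini-Hochberg adjustment over the 187 probes with 10 counts or more in 6 rats or more. Each SE was the fold change over the square root of F. A first fit summed library sizes over all 420 probes. After its results had been seen, library sizes were taken over the 187 tested probes, and the first fit was kept as an alternative. DESeq2 1.42.0 and limma 3.58.1 (voom) were alternatives, beside other scalings and filters, a replicate block, an age group and leaving out each rat.

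The background stand-in used the sample SD of 4 exogenous probes. Subtracted values under 1 were set to 1. The positive control factor was left at 1, since the counts held no positive control probes. NormFinder stability took the groups and log2 counts after subtraction of the mean + 1 SD. Workflows 1 and 2 had no correction, 3 to 8 subtraction and 9 to 14 thresholding, each of the latter with NormFinder before total RNA normalisers and with the mean + 2 SD, the mean + 1 SD and the mean in that order. The methods' t-test was two-sided on linear values, and the exact permutation test, two-sided too, used every split of the 12 rats into 6 and 6. Correlations used 100000 resamples. Code ran in Python 3.11.15 with scipy 1.17.1, pandas 2.3.3 and numpy 2.4.6. The edgeR and NormFinder steps were tested on simulated data. Levels of different probes were not compared as abundances, since probes differ in efficiency. The lowest and highest totals were 5163 and 30301 counts per rat, so a member often rested on under 30 counts.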

Additional observations from a re-analysis of the deposited data

How the results depend on the processing

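The count of probes called by edgeR, over all tested probes and over the members, was 0 under every alternative run, from other scalings and filters to DESeq2, limma-voom and each rat left out; DESeq2 had 8 and limma-voom 6 probes at an unadjusted p under 0.05. Requiring at least 20 counts left 0 members to test. The log2 fold changes of miR-99a and miR-125a-5p stayed negative under all alternatives run. That of miR-125b-5p turned to -0.20 with plain library sizes, and the cause was not tested. It turned to -1.08 without pregnant rats 5 and 6, the rats in which its counts were highest. With library sizes summed over all 420 probes, the fit run first, 12 probes had an unadjusted p under 0.05 and 7 of them were higher in pregnant rats, with miR-99a at -0.49. Same-numbered rats were not pairs in the labels, and the correlations of their deviations ran from -0.34 to 0.27. With the replicate block 0 probes and 0 members were called, and miR-99a was at -0.42, miR-125a-5p at -0.39 and miR-125b-5p at 0.16. Leaving out 1 rat each moved miR-99a between -0.57 and -0.37, miR-125a-5p between -0.59 and -0.23 and miR-125b-5p between 0.02 and 0.77. Member calls in the workflows were 3 with the exact permutation test, all of them of miR-99a. These were in workflows 1 and 11, which hold the same values, and in workflow 3, with 10 of 12 rats at the floor. The calls were 3 on the log2 scale, 8 with 5 exogenous probes as the stand-in and 0 after Benjamini-Hochberg adjustment. They were 17 without pregnant rats 5 and 6, and 2 to 8 with 1 rat left out. The matching counts over all endogenous probes were not taken for these settings. Against the mean of the stand-in, 1 member was above background in all rats, and 0 with the other limits. Depth limits these results: most values rest on under 30 counts.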
